A study of Homo sapiens with 6 samples.

Results

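Interferon-stimulated genes are the transcripts that cells make more of after type I or type III interferon has bound its receptor. The 40 genes described here are effectors, signalling factors and antigen-processing genes of that response that were chosen by name. All 40 were found among the 48162 gene rows of the count table, and 1 row was used for each. They were followed across 6 libraries of RNA pulled down with Flag-tagged Ago2 from HEK293 cells, an established human embryonic kidney line.

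All cells received Flag-Ago2, the protein that holds the guide RNA in the silencing complex, by transfection. They received it together with a miR-219 mimic (3 libraries) or a negative control mimic (3 libraries), and anti-Flag agarose was used to collect the complexes. Each mimic has 1 library dated 22 August, 1 dated 5 September and 1 dated 18 September. The labels give no promoter for the tagged Ago2, no dose or duration, and no statement that the dates were separate cultures, so p-values here reflect only how far these libraries scatter, and that scatter may be technical. No libraries of untransfected cells or of input RNA were used here. A level therefore mixes how much of a transcript the cells held with how much of it came down with Ago2, and in bulk samples fewer responding cells and less RNA per cell cannot be told apart.

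In the interferon pathway, receptor-bound kinases phosphorylate STAT proteins, which join IRF9 to form a complex that enters the nucleus and binds the interferon-stimulated response element of target promoters. The targets include proteins that bind foreign RNA, trap or degrade viral components, attach the ubiquitin-like protein ISG15 to other proteins, or load peptides for display to T cells.

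The promoters of 4 of the genes are shown because the response element can be read in them directly. They are those with the lowest p in the comparison of dates below among genes that hold the element. The letters searched were GAAA, then 2 bases of any kind, then GAAA again, on either strand, so that a match on the other strand reads TTTC, 2 bases and TTTC. Matches are in capitals. Each run is RefSeq sequence on build GRCh38.p14, from 250 bases before the annotated start to the first 30 bases of the transcript, printed 5′ to 3′ on the strand of the gene. MX1 lies at chr21:41420308-41420587 on the plus strand, IFIT3 at chr10:89327747-89328026 on the plus strand, IFI44L at chr1:78620198-78620477 on the plus strand and DDX60 at chr4:168318723-168319002 on the minus strand.
MX1: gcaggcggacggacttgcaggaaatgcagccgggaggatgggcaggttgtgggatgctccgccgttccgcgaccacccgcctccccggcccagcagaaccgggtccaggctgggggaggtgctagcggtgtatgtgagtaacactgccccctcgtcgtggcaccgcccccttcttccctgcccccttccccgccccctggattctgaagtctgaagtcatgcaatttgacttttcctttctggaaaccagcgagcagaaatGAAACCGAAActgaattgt
IFIT3: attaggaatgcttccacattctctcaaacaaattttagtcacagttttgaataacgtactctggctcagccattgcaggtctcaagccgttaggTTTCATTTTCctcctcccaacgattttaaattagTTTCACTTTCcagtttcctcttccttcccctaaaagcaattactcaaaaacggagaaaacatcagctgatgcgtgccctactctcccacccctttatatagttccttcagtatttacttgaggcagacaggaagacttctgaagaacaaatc
IFI44L: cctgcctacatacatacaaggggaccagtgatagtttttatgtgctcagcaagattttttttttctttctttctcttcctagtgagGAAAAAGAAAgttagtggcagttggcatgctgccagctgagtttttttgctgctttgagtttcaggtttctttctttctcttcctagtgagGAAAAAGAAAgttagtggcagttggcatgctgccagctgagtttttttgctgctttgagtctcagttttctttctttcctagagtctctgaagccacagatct
DDX60: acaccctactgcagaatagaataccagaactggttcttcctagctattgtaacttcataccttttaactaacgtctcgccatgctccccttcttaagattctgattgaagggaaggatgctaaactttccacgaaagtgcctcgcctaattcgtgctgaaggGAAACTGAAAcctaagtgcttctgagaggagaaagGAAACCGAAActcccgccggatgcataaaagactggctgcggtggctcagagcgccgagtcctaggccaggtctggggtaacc

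MX1 holds 1 match, which starts 11 bases after the annotated start, and the other 3 promoters hold 2 matches each. The matches of IFIT3 are read on the opposite strand and start 156 and 122 bases upstream. Those of IFI44L, 164 and 73 bases upstream, have the same letters, and those of DDX60 start 88 and 53 bases upstream.

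Over all the genes, 36 of the 40 had a promoter in the RefSeq table, and the 300-base window from 250 before to 50 after the start was searched. IFIT2, MX2, USP18 and IFITM2 had none. The response element was found in 23 of the 36, or 63.9%, against 3.65% of 27305 promoters of the same length in the table and 2.82% of the 10941 that belong to genes tested below. Of the 23, 10 held 1 match and 13 held more than 1. Of 39 matches, 38 began upstream of the start, which is where most of the window lies, and 22 of those within 100 bases, with a median distance of 84 bases. The places of matches in other promoters were not compared. A second motif, the palindrome TTCNNNGAA that is the core of a STAT dimer site, was found in 10 of the 36, or 27.8%, against 7.94% of all promoters. A match of letters is a description of the window and does not show that a factor binds there. Nor does the lack of a match show that the element is absent.

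**Figure D1:**
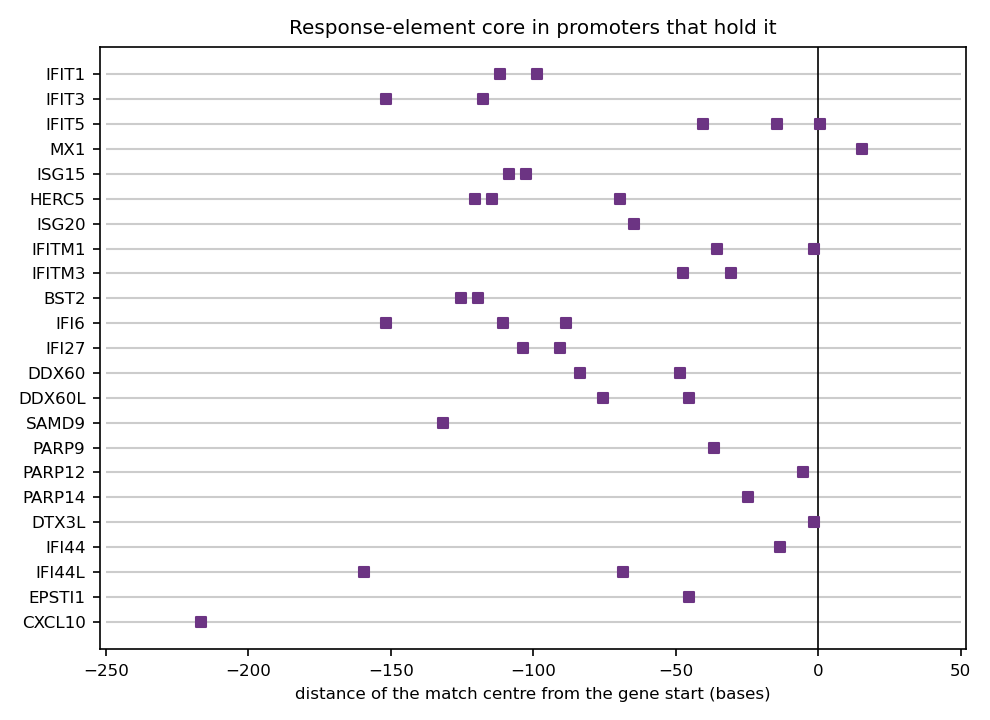
Matches to the response element core in the promoter windows of the interferon-stimulated genes that hold one. The x axis is the distance in bases from the annotated start (negative is upstream), each row is a gene, and each square is the centre of a match. Of 39 matches, 38 start upstream, and that of MX1 starts downstream.

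The depth behind these values ran from 20233819 to 34408699 counts per library, and libraries correlated at 0.9794 to 0.9905 over genes. AGO2 took 10.6 to 18% of counts, with no called difference between 22 August and the later dates (log2 difference -0.05, SE 0.13, edgeR adjusted p = 0.968, n = 2 and 4). Mitochondrially encoded transcripts took 13.3 and 8.39% of counts in the mimic and control libraries of 22 August, against 5.66 to 7.27% in the later libraries. With AGO2 and these transcripts left out of the scaling, 31 of the 40 genes rose in the comparison of dates below, as with them. Levels are given below in CPM, the usual scaling of counts to a common library size, with sizes adjusted by the trimmed mean of M values (TMM). Where a pair of values stands beside a date, that of the miR-219 mimic library comes before that of the control library. The genes listed as markers of HEK293 cells were all detected, 8 of 8, which does not by itself identify the cells. Their summed level was 2100 to 2200 CPM on 22 August, against 1760 to 1870 CPM later.

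Summed over the interferon-stimulated genes, the miR-219 mimic library of 22 August held 1656 CPM and the negative control library 1610 CPM. The mimic library held 476.7 CPM and the control library 408.1 CPM on 5 September, and these sums were 443.2 and 442.8 CPM for mimic and control on 18 September. Both libraries of 22 August thus stood above all later ones, and the difference between mimics within a date was small beside that between dates. Gene by gene, 39 of the 40 had both 22 August libraries above all 4 later ones, ISG20 being the exception. Among those with enough counts to be tested below it was 38 of 39, against 6.3% of all tested genes.

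The comparison of 22 August with the mean of the later dates was fitted with edgeR's quasi-likelihood test over 16689 genes, with date and mimic as terms. Of the 40 genes, 39 had enough counts to be tested, and 31 of them rose on 22 August at an adjusted p under 0.05, against 0.33% of all tested genes. None fell, against 0.00599% of all tested genes. The 40 genes were chosen with a higher level of interferon genes on 22 August already known, so these shares are not independent support. The share over all genes moved with the libraries used: it was 5.61% without the control library of 22 August, 0.939% without the mimic library of that date, 0.974% and 1.35% without the mimic or control library of 5 September, and 1.77% without both of these. In those fits 32 to 35 of the interferon-stimulated genes rose. Their median log2 difference was 2.02, a fold of 4.07, against a median of 0.01 over all genes. The 8 tested genes that did not pass were STAT2, IRF9, IRF1, HERC5, ISG20, IFITM2, SAMD9L and PSMB9. All 8 had an estimate above 0, from 0.17 for ISG20 to 2.98 for SAMD9L.

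Some of the genes reached the test only through their level on 22 August. In the later libraries alone, 36 passed the same filter on low counts, and 29 of these were among those called. MX2, XAF1 and SAMD9L passed it only with 22 August included. The size of the gap varied. The ratio of the lower 22 August library to the highest later one was over 3 for 20 genes. It was under 2 for 11, among them ISG20 at 0.785. CXCL10 is among the 20, with 2 counts in the control library of 22 August and 0 in the later ones. The shares of all tested genes past these cut-offs were not counted. Taken per mimic, the median log2 difference was 1.98 among the mimic libraries and 1.86 among the control libraries, each with 1 library from 22 August and 2 from later dates.

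**Figure D2:**
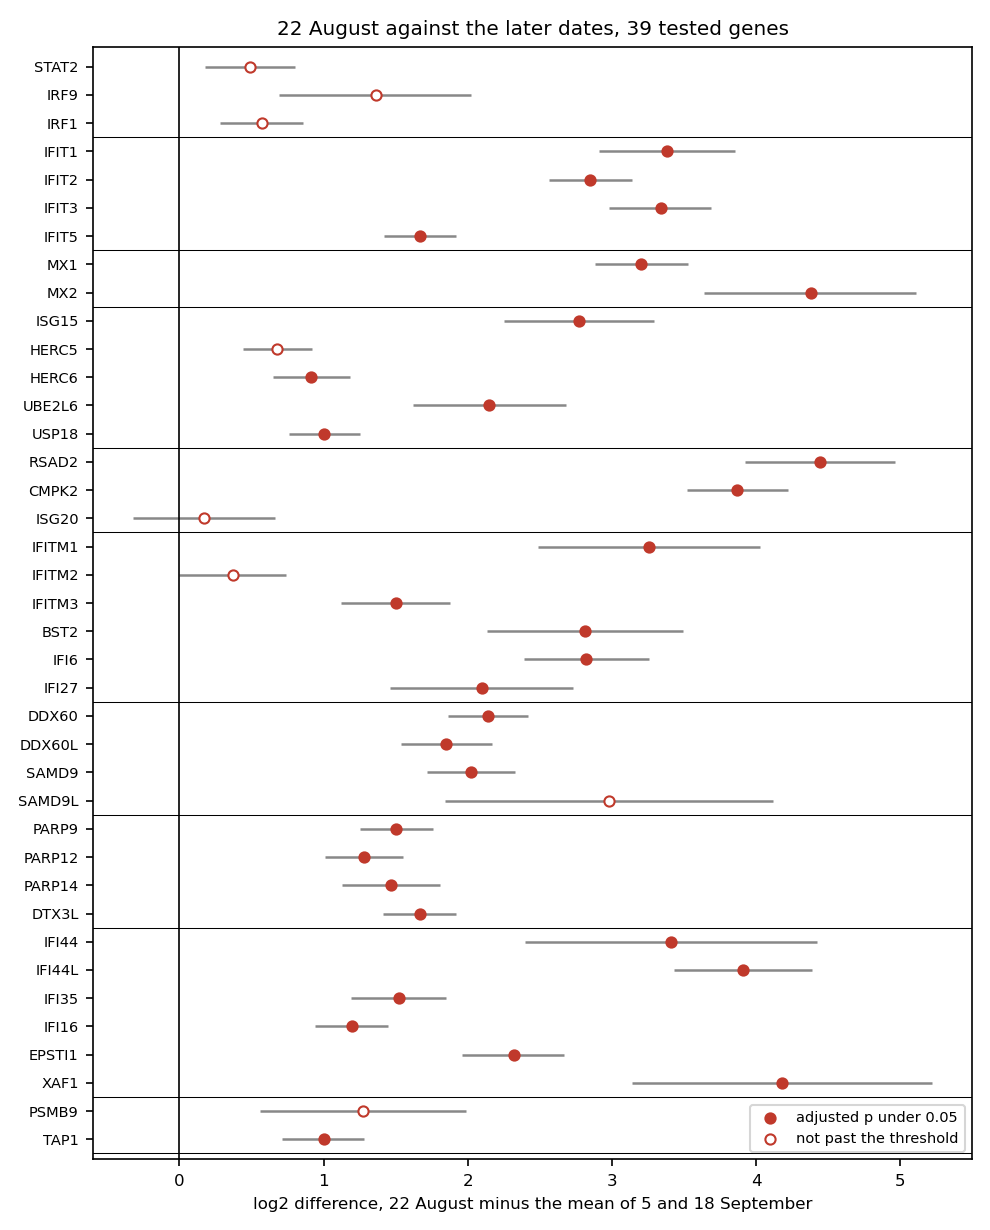
Log2 difference of 22 August over the mean of 5 and 18 September for each tested interferon-stimulated gene, on the x axis, with 95% confidence intervals from the edgeR fit as lines. Filled and open points mark genes past and not past an adjusted p of 0.05. All 39 estimates lie above 0, from 0.17 for ISG20 to 4.44 for RSAD2.

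None of the 3 signalling factors among the genes passed, though each was highest on 22 August. STAT2, which is switched on by phosphorylation, had 38.9 and 31.5 CPM on 22 August, mimic before control, 27.2 and 27.7 CPM on 5 September, then 21.9 and 23.8 CPM on 18 September. IRF9, the DNA-binding part of the complex, had 1.97 and 2.14 CPM on 22 August, 0.774 and 0.679 CPM on 5 September, then 1.11 and 0.664 CPM on 18 September. For neither gene did 22 August overlap the later dates. Neither passed over all genes (STAT2 log2 difference 0.49, SE 0.13, edgeR adjusted p = 0.433; IRF9 1.36, SE 0.28, adjusted p = 0.231). IRF1, a transcription factor induced early by interferon-gamma and by other signals, had 24.5 and 23.5 CPM on 22 August, 15 and 17.4 CPM on 5 September, then 15.4 and 17.0 CPM on 18 September. Its log2 difference was 0.57 (SE 0.12, edgeR adjusted p = 0.266). Without the control library of 22 August, the log2 difference was 0.67 for STAT2 and 0.69 for IRF1. Only the mimic library of that date remains in that fit, so no call is given. IRF9 passed without the mimic (edgeR adjusted p = 0.0162) or the control (0.0159) library of 5 September. In those fits of IRF9, 0.974% and 1.35% of all tested genes rose.

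The 4 IFIT genes, whose products bind RNA, several of them blocking translation of viral messages, all rose. IFIT3 had 178 and 142 CPM on 22 August, mimic before control, 23.0 and 13.8 CPM on 5 September, then 13.6 and 13.8 CPM on 18 September (log2 difference 3.34, SE 0.15, edgeR adjusted p = 0.00021). IFIT1 had 158 and 187 CPM on 22 August, 22.6 and 12.7 CPM on 5 September, then 16.4 and 15.6 CPM on 18 September (3.38, SE 0.20, adjusted p = 0.000625). Both rose by nearly the same amount on 22 August, and their later levels lay close together except for the higher mimic library of 5 September. IFIT2 had 122 and 111 CPM on 22 August, 27.3 and 20.3 CPM on 5 September, then 10.8 and 11.2 CPM on 18 September (2.85, SE 0.12, edgeR adjusted p = 0.000186). It alone of the IFIT genes had no overlap between the later dates, 18 September being the lower. IFIT5, the remaining relative, had 132 and 133 CPM on 22 August and 37.5 to 43.5 CPM later, the smallest difference of the family (1.67, SE 0.11, edgeR adjusted p = 0.000789).

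In the table's hg19 coordinates the IFIT genes form a cluster on chromosome 10, IFIT2 at chr10:91061712-91069033, IFIT3 at chr10:91087651-91100728, IFIT1 at chr10:91152303-91163745 and IFIT5 at chr10:91174343-91180758. IFIT1, IFIT2 and IFIT3 lie within the span of LIPA on the opposite strand. The library kit named in the labels does not mark strand, so reads of overlapping genes on opposite strands cannot be told apart.

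The dynamin-like GTPases MX1 and MX2, which assemble around incoming viral nucleocapsids and capsids, both rose. MX1 had 40.4 and 30.8 CPM on 22 August, 3.59 and 3.13 CPM on 5 September, then 4.35 and 4.46 CPM on 18 September, mimic before control (log2 difference 3.20, SE 0.14, edgeR adjusted p = 0.000186). MX2 had 8.04 and 5.83 CPM on 22 August, 0.141 and 0.236 CPM on 5 September, then 0.832 and 0.284 CPM on 18 September (4.38, SE 0.31, adjusted p = 0.00137). MX2 was near the detection limit after 22 August, where 3 counts correspond to between 0.0886 and 0.142 CPM. It passed the filter on low counts only with 22 August included, so its test rests on its level on that date. The 2 genes lie next to each other on chromosome 21, 10914 bases apart.

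ISG15 and its conjugation genes varied more among themselves. ISG15, the ubiquitin-like modifier itself, had 54.5 and 74.9 CPM on 22 August, mimic before control, 12.1 and 7.09 CPM on 5 September, then 10.3 and 8.91 CPM on 18 September (log2 difference 2.77, SE 0.22, edgeR adjusted p = 0.00263). UBE2L6, the E2 enzyme that passes ISG15 on, rose by 2.15 (SE 0.22, edgeR adjusted p = 0.0102), with 7.14 and 6.75 CPM on 22 August and 1.18 to 2.23 CPM later. USP18, which removes ISG15 and damps the receptor, had 52.7 and 55.8 CPM on 22 August, 22.4 and 23.4 CPM on 5 September, then 31.4 and 32.6 CPM on 18 September (1.0, SE 0.10, edgeR adjusted p = 0.00994). For USP18 the dates did not overlap at any point, with 18 September above 5 September in both mimics. HERC5, the human E3 ligase for ISG15, had 67.6 and 63.9 CPM on 22 August, 42.5 and 38 CPM on 5 September, then 43.7 and 40.4 CPM on 18 September, and did not pass (0.68, SE 0.10, edgeR adjusted p = 0.0711). It passed without the mimic or the control library of 5 September (edgeR adjusted p = 0.00382 and 0.00865), where 0.974% and 1.35% of all tested genes rose. Without the mimic or the control library of 22 August, the log2 difference of HERC5 was 0.71 and 0.65. Only the other library of that date remains in each of these fits, so no call is given. Its neighbour and relative HERC6 rose by 0.91 (SE 0.11, edgeR adjusted p = 0.023). That call was lost without the mimic library of 18 September (adjusted p = 0.153), without the control library of that date (0.0869) and without both (0.0538).

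RSAD2 and CMPK2, which together make a chain-terminating nucleotide (RSAD2 encodes viperin), both rose. RSAD2 had 35.0 and 25.7 CPM on 22 August, mimic before control, 2.43 and 0.915 CPM on 5 September, then 1.25 and 1.19 CPM on 18 September (log2 difference 4.44, SE 0.22, edgeR adjusted p = 0.000335). CMPK2 had 28.4 and 29.2 CPM on 22 August, 1.87 and 1.51 CPM on 5 September, then 2.13 and 2.47 CPM on 18 September (3.87, SE 0.15, adjusted p = 0.000186). The lower 22 August library exceeded the highest later one by 10.6 times for RSAD2 and by 11.5 times for CMPK2, and of all the genes with later counts only IFI44L had a wider gap, at 11.8 times. The 2 genes overlap by 829 bases on opposite strands of chromosome 2. Neither of their promoter windows held a match to the letters searched. Variants of those letters and sequence outside the window were not searched, so this does not show that the element is absent. ISG20, a 3′-to-5′ exonuclease placed with them, was the only gene without both 22 August libraries above all later ones. Its difference from the other genes was not tested. It had 2.83 and 4.01 CPM on 22 August, 2.89 and 2.69 CPM on 5 September, then 2.91 and 3.60 CPM on 18 September (0.17, SE 0.21, edgeR adjusted p = 0.927), and its estimate was -0.04 without the control library of 22 August.

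Among the membrane and small hydrophobic proteins, 5 of 6 rose. IFI6, a small protein of the endoplasmic reticulum and mitochondria, had 99.7 and 150 CPM on 22 August, mimic before control, 16.7 and 13.0 CPM on 5 September, then 17.6 and 23.3 CPM on 18 September (log2 difference 2.82, SE 0.18, edgeR adjusted p = 0.000823). IFITM1, which hinders virus entry at the cell surface, had 3.52 and 4.52 CPM on 22 August, 0.528 and 0.236 CPM on 5 September, then 0.555 and 0.379 CPM on 18 September (3.26, SE 0.33, edgeR adjusted p = 0.00834). IFITM3, its endosomal relative, rose by 1.5 (SE 0.16, edgeR adjusted p = 0.0116), BST2, which tethers budding virions, by 2.81 (SE 0.29, adjusted p = 0.00932), and IFI27 by 2.10 (SE 0.27, adjusted p = 0.0298). IFITM2 had 6.42 and 5.79 CPM on 22 August, against 4.61 and 4.37 CPM on 5 September, then 4.95 and 4.98 CPM on 18 September, and did not pass (0.37, SE 0.16, edgeR adjusted p = 0.716). The IFITM genes share much of their sequence, and the table's spans of IFITM1 and IFITM2 overlap on the same strand, so reads could be split between them.

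The helicase-like DDX60 and DDX60L rose by 2.14 (SE 0.12, edgeR adjusted p = 0.000473) and 1.85 (SE 0.13, adjusted p = 0.00137). DDX60 had 32.7 and 26.8 CPM on 22 August, mimic before control, 7.85 and 6.41 CPM on 5 September, then 6.94 and 5.78 CPM on 18 September. SAMD9, a restriction factor for poxviruses, had 34.1 and 23.7 CPM on 22 August, 10.2 and 8.00 CPM on 5 September, then 5.83 and 5.03 CPM on 18 September (2.02, SE 0.13, edgeR adjusted p = 0.000789). Like IFIT2, SAMD9 stood higher on 5 September than on 18 September in both mimics. Its neighbour SAMD9L was scarce, with 1.83 and 1.15 CPM on 22 August and 0.0886 to 0.422 CPM later (2.98, SE 0.49, edgeR adjusted p = 0.0998). SAMD9L reached the test only with 22 August included. It passed with any 1 of the later libraries left out (edgeR adjusted p = 2.85e-07 to 0.0382), fits in which 0.329% to 1.35% of all tested genes rose. Leaving out either library of 22 August leaves only the other of that date, so no call is given for those fits. Its log2 difference was 2.83 without the control library of that date. Leaving out each of the 6 libraries in turn, it ran from 2.5 to 3.56.

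PARP9 and DTX3L, whose products form a paired ADP-ribosyltransferase and ubiquitin ligase, are read from opposite strands that overlap by 339 bases. DTX3L had 99.6 and 76.7 CPM on 22 August, mimic before control, 31.6 and 27.6 CPM on 5 September, then 26.7 and 24.6 CPM on 18 September (log2 difference 1.67, SE 0.11, edgeR adjusted p = 0.000823). PARP9 rose by 1.5 (SE 0.11, edgeR adjusted p = 0.00137). PARP12, an ADP-ribosyltransferase that inhibits translation of viral RNA, had 64.4 and 56.7 CPM on 22 August, 22.6 and 23.3 CPM on 5 September, then 25.7 and 28.3 CPM on 18 September (1.28, SE 0.12, edgeR adjusted p = 0.00485). PARP14 had 41.4 and 26.2 CPM on 22 August and 9.44 to 16.1 CPM later (1.47, SE 0.14, edgeR adjusted p = 0.00752). The 4 genes thus rose by between 1.28 and 1.67 on the log2 scale.

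All 6 of the remaining induced genes rose. IFI16, a nuclear DNA sensor, was the most abundant of them, with 67.2 and 64.1 CPM on 22 August, mimic before control, 29.0 and 26.6 CPM on 5 September, then 28.8 and 30.3 CPM on 18 September (log2 difference 1.2, SE 0.11, edgeR adjusted p = 0.00479). XAF1, which opposes an inhibitor of apoptosis, had 1.45 and 0.992 CPM on 22 August and 0.0295 to 0.139 CPM later, a level of 1 to 3 counts that would not have passed the filter alone (4.18, SE 0.44, edgeR adjusted p = 0.0109). Of the other 5 genes of this group, which passed the filter in the later libraries alone, IFI44L had the largest difference, 3.91 (SE 0.20, edgeR adjusted p = 0.000363), with 17.6 and 17.5 CPM on 22 August against 0.679 to 1.48 CPM later. EPSTI1 rose by 2.32 (SE 0.15, edgeR adjusted p = 0.000823) and IFI35 by 1.52 (SE 0.14, adjusted p = 0.00504). IFI44, the neighbour of IFI44L at 6997 bases, had 5.94 and 11.7 CPM on 22 August, 1.02 and 0.472 CPM on 5 September, then 1.34 and 0.522 CPM on 18 September (3.41, SE 0.43, edgeR adjusted p = 0.0269). IFI44 was lower with the mimic on 22 August and higher with it on both later dates, and limma-voom did not call its rise (adjusted p = 0.0684).

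Of the antigen-processing genes, TAP1, one subunit of the peptide transporter, rose and PSMB9, a subunit of the immunoproteasome, did not pass. TAP1 had 47.8 and 36.0 CPM on 22 August, mimic before control, 21.6 and 19.6 CPM on 5 September, then 22.0 and 20.2 CPM on 18 September (log2 difference 1.0, SE 0.12, edgeR adjusted p = 0.0217). Without the mimic library of 18 September its adjusted p was 0.0948, and without both libraries of that date 0.0691. PSMB9 had 1.35 and 1.63 CPM on 22 August, 0.458 and 0.325 CPM on 5 September, then 0.971 and 0.948 CPM on 18 September (1.27, SE 0.31, edgeR adjusted p = 0.338). Their spans overlap on opposite strands of chromosome 6. CXCL10, the chemokine that draws activated T cells, was the 1 gene not tested between dates. It had 14 counts with the mimic and 2 with the control on 22 August, and 0 counts in each of the 4 later libraries, which allows up to 3 counts in each.

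**Figure D3:**
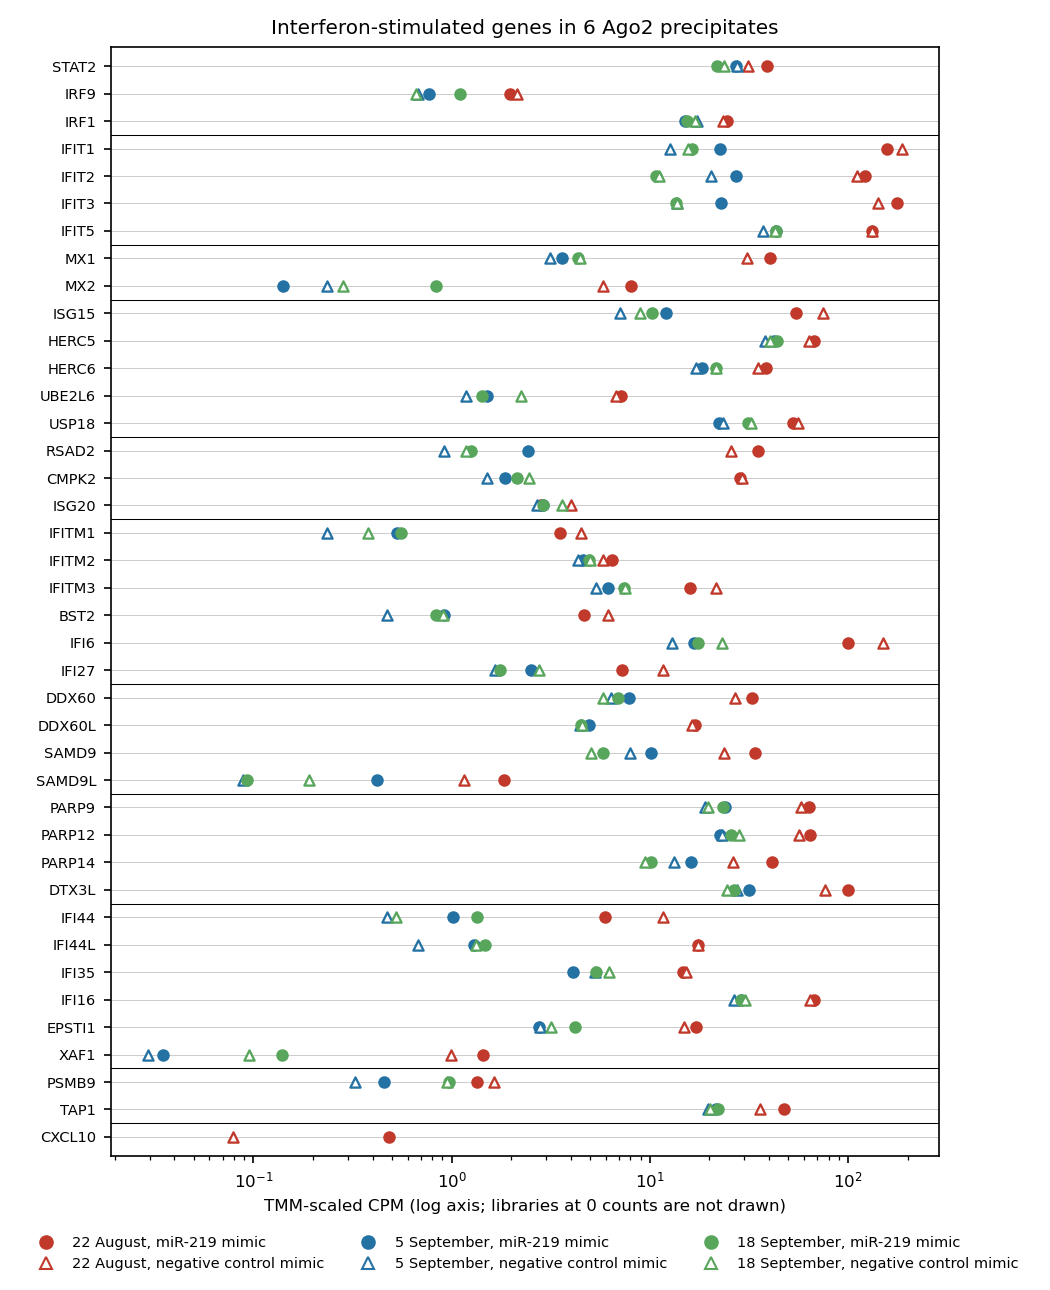
Level of each of the interferon-stimulated genes in each of the 6 libraries, in CPM on a log scale, with genes grouped by role. Points are single libraries, coloured by date, with circles for the miR-219 mimic and triangles for the control. Libraries with 0 counts are not drawn. Both 22 August values are above all later ones for 39 of 40 genes. CXCL10 is among the 39 and has no later points, as its counts there were 0.

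Levels were compared between genes per length, here CPM per kilobase of the gene length given in the table. That length need not be the length of the transcript present. On that scale IFI6 was the most abundant, at a mean of 148 on 22 August and 21 on the later dates. ISG15 followed with 91 and 13.5, IFIT3 with 64.1 and 6.43, and IFIT1 with 62.3 and 6.08. SAMD9L was the lowest on 22 August, at 0.209 against 0.0278 later. The order of the later dates was not that of 22 August: USP18, at 25.5 and 12.9 CPM per kilobase, and HERC5, at 18.7 and 11.7, were seventh and ninth on 22 August but stood above IFIT3 and IFIT1 later.

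Other genes of the pathway are given from lists written with earlier results of these data known. The ligands were nearly absent. None of 10 interferon genes had enough counts to be tested, and the most in any library was 8 counts. IFNB1 had 8 and 5 counts on 22 August, 4 and 1 on 5 September, and 1 and 3 on 18 September, mimic before control. Of the type III interferons, IFNL3 had 7 and 3 counts on 22 August and 0 in the 4 later libraries, IFNL2 had 4 and 0 counts and then 0, and IFNL1 had 5 and 3 counts on 22 August, 3 and 1 on 5 September, and 0 in both libraries of 18 September. IFNE had 2 and 5 counts on 5 September and 0 elsewhere. IFNA1, IFNK and IFNW1 had 1 count each, in the control library of 5 September, and IFNA2 and IFNG had 0 counts in all 6 libraries. None of these differences was tested.

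None of the 9 receptor and kinase genes was called in either direction between dates, and their median log2 difference was 0.01. Among 9 other transcription factors 1 rose. IRF7, which amplifies transcription of interferon genes, had 60.2 and 50.2 CPM on 22 August, mimic before control, 15.7 and 13.3 CPM on 5 September, then 16.3 and 16.2 CPM on 18 September (log2 difference 1.84, SE 0.11, edgeR adjusted p = 0.000789). IRF7 thus passed where STAT2, IRF9 and IRF1 did not, and the difference between those genes was not itself tested.

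Of 14 sensing genes, 3 rose: DDX58, which encodes the RNA sensor RIG-I, by 2.59 (SE 0.11, edgeR adjusted p = 0.000186), IFIH1, which encodes MDA5, by 2.20 (SE 0.12, adjusted p = 0.000451), and the ubiquitin ligase TRIM25 by 0.87 (SE 0.12, adjusted p = 0.0365). The median of the list was 0.67. All 4 oligoadenylate synthetase genes, whose products make a second messenger on binding double-stranded RNA, rose, with a median of 3.54. OAS2 had 19.3 and 12.6 CPM on 22 August, mimic before control, 0.95 and 0.738 CPM on 5 September, then 1.16 and 0.711 CPM on 18 September (log2 difference 4.15, SE 0.17, edgeR adjusted p = 0.000186). OAS1 rose by 4.12 (SE 0.34, edgeR adjusted p = 0.00284), OAS3 by 2.96 (SE 0.15, adjusted p = 0.000363) and OASL, whose product lacks the enzyme activity, by 2.58 (SE 0.21, adjusted p = 0.00284).

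Of 8 negative regulators 1 rose, TRIM21, by 1.36 (SE 0.15, edgeR adjusted p = 0.0118). None passed among 15 genes of antigen presentation (median log2 difference 0.45), 4 of the interferon-gamma and GBP list (0.79) and 12 NF-kappaB targets (0.19). No gene of these lists was called between mimics or between the later dates. These counts are to be read against the 0.33% of all tested genes that rose, a share that reached 5.61% with the control library of 22 August left out.

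**Figure D4:**
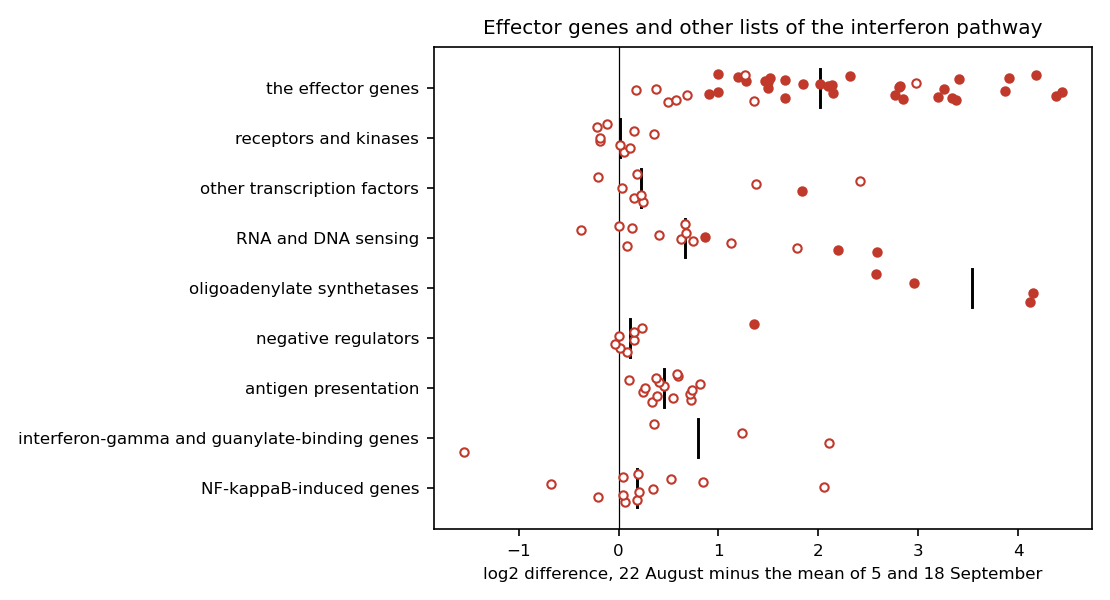
Log2 difference of 22 August over the later dates, on the x axis, for the tested genes of each list of the interferon pathway, 1 row per list. Each point is a gene, filled where its adjusted p is under 0.05, and the black bar is the median of the row. Vertical offsets only separate points, and the 40-gene set is the top row. The 9 receptor and kinase genes centre on 0.01, and the 4 oligoadenylate synthetase genes lie far to the right, with a median of 3.54.

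Markers of other cell types were read in the same libraries. Of 12 leukocyte markers 5 were tested between dates, and edgeR called none. The summed leukocyte list had 169 to 177 CPM on 22 August and 120 to 146 CPM later, most of it LCP1, which had 171 and 164 CPM with mimic and control on 22 August and 115 to 142 CPM later. PTPRC, the pan-leukocyte marker, had 1 count in the mimic library of 22 August and 0 in the other 5 libraries, and MS4A1 had 0 in all. CD79A, a B cell receptor subunit, had 14 and 20 counts on 22 August and 4 to 7 later (log2 difference 1.42, edgeR adjusted p = 0.58). CD14, ITGAM and CORO1A had 19 to 63 counts per library, and the other 5 markers had at most 7. CLEC4C, LILRA4 and TCL1A, which define the plasmacytoid dendritic cells that make much interferon, had 0 counts in all libraries, and IL3RA, the remaining gene of that list, had 52 to 100 counts, or 2.06 to 3.17 CPM. The summed list of plasma cell and intestinal markers on 22 August was 0.414 CPM in the mimic library and 39.7 CPM in the control library, and 1.12 to 28.6 CPM later. Red cell markers reached 698 CPM in 1 library, the control of 5 September, against at most 0.19 CPM elsewhere. The part of the cells that these markers stand for in the date difference was not tested.

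With the miR-219 mimic set against the negative control within dates, no interferon-stimulated gene was called. In the edgeR fit with date as a block, 0 of 39 passed in either direction, against 0% of all 16689 genes, and DESeq2 and limma-voom also called 0. At an unadjusted p under 0.05 there were 5 of 39, or 12.8%, and 949 over all genes, or 5.69%. The median log2 difference was 0.12, with 31 genes above 0 and 8 below, against a median of 0 over all genes. For 34 of the 39 the 95% confidence interval lay within a 2-fold change in either direction, so a larger change is outside the interval for most of them.

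The 5 genes with the lowest p were all higher with the mimic, and all had an edgeR adjusted p of 0.828. SAMD9 differed by a log2 of 0.38 (95% interval 0.08 to 0.68) and was higher with the mimic on 3 of 3 dates. RSAD2 differed by 0.63 (0.08 to 1.18), PARP14 by 0.37 (0.03 to 0.70), IFIT3 by 0.36 (0.00 to 0.72) and DDX60 by 0.28 (0.00 to 0.56). RSAD2, PARP14 and DDX60 were also higher on 3 of 3 dates, and IFIT3 on 2 of 3. Over all the genes, 11 were higher with the mimic on all 3 dates, against 15.5% of tested genes, 2 were lower on all 3, against 14.3%, and 27 were mixed.

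Date by date, with 1 library per mimic and so no test, the mimic-over-control log2 ratio of the 40 genes had a median of 0.08 on 22 August, 0.21 on 5 September and 0.00 on 18 September. It was above 0 for 25, 32 and 20 genes on the 3 dates in that order. Over all tested genes the medians were 0.02, 0 and -0.01. On 5 September the largest ratios were those of SAMD9L (1.60), RSAD2 (1.34) and IFI44 (1.0). On 22 August IFI44 (-0.97), IFI27 (-0.69) and IFI6 (-0.59) lay at the other end.

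The ratio on 22 August went with the gene length given with the counts, a relation looked at after the values were seen. Across the 39 tested genes, Spearman's rho between length and the ratio was 0.583, against 0.367 over all 16689 tested genes. These are correlations across genes of 2 libraries that share one pair of totals, and genes are not independent replicates. The 6 genes shorter than 1100 bases, among them ISG15, BST2 and the IFITM genes, had a median log2 ratio of -0.42 on 22 August, and the 10 longer than 5000 bases, among them PARP14 and SAMD9, had 0.21. Over all tested genes the medians for the same lengths were -0.19 and 0.26. On 5 September rho was -0.14 for the genes and -0.0863 for all, and on 18 September 0.134 and 0.137. The part of length in the mimic ratios was not tested further.

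**Figure D5:**
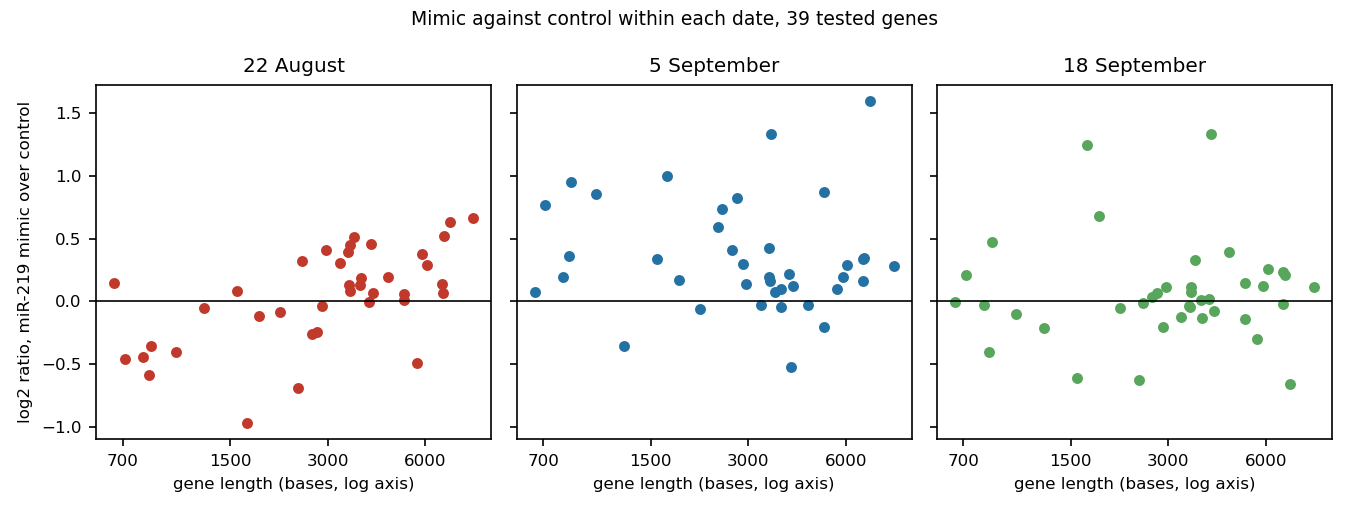
Log2 ratio of the miR-219 mimic library over the control library (y axis) for the interferon-stimulated genes, 1 panel per date. The x axis is the gene length given with the counts, in bases on a log scale. On 22 August the points climb from left to right (Spearman's rho 0.583), with medians of -0.42 under 1100 bases and 0.21 over 5000 bases. On 5 September rho was -0.14 and on 18 September 0.134.

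The mimic difference on 22 August was also set against that on the later dates in an interaction fit. CXCL10 and XAF1, with 0 to 3 counts in the later libraries, gave no usable estimate. Of the other 38 genes, 0 were called by edgeR, DESeq2 or limma-voom, against 0% of 17462 genes in edgeR. An unadjusted p under 0.05 was found for 2 genes, and for 5.14% of all genes. The 2 were IFI44 (log2 difference of differences -2.22) and ISG15 (-0.95), and the smallest edgeR adjusted p of any gene was 0.831. With 1 library per mimic on 22 August, the spread in this fit comes from the later dates alone.

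The later dates were also compared with each other, 18 September over 5 September. In the edgeR fit 0 of 39 genes were called, against 0% of all tested genes higher and 0.012% lower, and 6 had an unadjusted p under 0.05. That is 15.4% of them, against 16.8% of all tested genes. The median log2 difference was 0.14, with 27 genes above 0 and 12 below. The 5 lowest p belonged to IFIT2 (log2 difference -1.10), SAMD9 (-0.74), USP18 (0.48), PARP14 (-0.57) and PSMB9 (1.30), with edgeR adjusted p from 0.23 to 0.239. In each of the 5, both mimics had the same direction, with no overlap between the dates. The 5 were picked by p in this comparison, so that order is no separate support. Its share over all tested genes was not counted. DESeq2 called IFIT2 (adjusted p = 0.00021) and limma-voom called none. Without the 22 August libraries, edgeR called USP18 higher and IFIT2, SAMD9 and PARP14 lower (adjusted p = 0.00257 to 0.0117), 4 of 36 tested. Over all 16130 genes tested in that fit, 1360 were higher and 1755 lower, a larger share than among the interferon-stimulated genes. The same 4 passed with the mimic or the control library of 22 August left out alone, fits that also called far more genes over all. For IFIT2 the log2 difference was -0.91 and -1.3 with the mimic or the control library of 5 September left out.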

How the data were processed

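The deposited table gives whole-number counts of reads per gene for 6 libraries of RNA from Flag-Ago2 precipitates. Per the submitters' processing notes, the authors used STAR 2.5, HTSeq 0.6.1 and DESeq2 (version given as 2) with build hg19. The HTSeq mode and strand setting are not given in the sources used here. All columns were mapped to samples by name, with 0 left over. Groups and dates come from the labels.

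The 40 genes, the other lists and the tests were chosen with earlier results of these data known, among them that interferon genes stood higher on 22 August, so that pattern is not independent support. The main test was the quasi-likelihood F test in edgeR 4.0.16 (R 4.3.3), run on the counts with TMM scaling, filterByExpr on the design (min.count 10, min.total.count 15), and terms for date and mimic. Adjusted p-values are Benjamini-Hochberg over all tested genes, with a threshold of 0.05. The interaction was fitted with an indicator of 22 August, the mimic and their product. DESeq2 1.42.0 and limma 3.58.1 gave alternatives. Log2 ratios within a date used a prior count of 2. Intervals are 95% confidence intervals of the fit. The code was tested on simulated data. Python 3.11.15 with pandas 2.3.3 and matplotlib 3.10.9 made the tables and plots.

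The labels date 1 library of each mimic alike, and these were paired. Their deviations from the group means correlated over genes at 0.0519, 0.147 and 0.477 in date order. Date was therefore a block in the comparison of mimics.

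All 40 genes could be named. Library levels are given, per role, for up to 4 genes with the highest mean level and the largest and smallest difference between dates, and for STAT2, IRF9, IFIT1, ISG15, MX1 and RSAD2. A few others follow for comparison with a neighbour, chosen after their values were seen. For the mimics and the later dates the 5 lowest p-values are named, and from each other list up to 4 genes past the threshold with the lowest p. Some genes of the pathway are not reported here.

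With 20233819 to 34408699 counts in a library, counting error matters mainly for scarce genes such as CXCL10 and XAF1. A floor of 3 counts covers counting error only.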

Additional observations from a re-analysis of the deposited data

Results flagged for a closer look

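Among the 4 later libraries, the highest or lowest value of each gene was compared with the rest, for the 39 genes with counts there, and 2 genes had a library far from the others. Chance alone marks about 1 group in 20 by this comparison, and 2 of 39 is close to that. The share over all genes was not counted. IFIT3, an RNA-binding antiviral protein, had 23.0 CPM in the miR-219 mimic library of 5 September, against 13.6, 13.8 and 13.8 CPM in the other later libraries. IFIT5, its relative, had 37.5 CPM in the control library of 5 September, against 42.8, 43.2 and 43.5 CPM in the others. In both genes all later values lay below those of 22 August.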

How the results depend on the processing

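The number of interferon-stimulated genes that rose on 22 August ran from 30 to 36 over 15 alternatives, and 27 of the 31 rose in every one. XAF1 rose in the 14 that tested it, and was not tested with the filter on the mimic groups. Of the genes called, MX2 and XAF1 passed the main filter only with 22 August included. Their calls over the alternatives therefore rest on their level on that date. Of the 8 not called, IFITM2 and ISG20 passed in none and 6 in at least 1 (HERC5 in 8, SAMD9L in 10). Their median log2 difference was 1.94 with the filter applied to the mimic groups, 1.93 without both libraries of 5 September, 1.91 without both of 18 September, and 1.85 to 2.11 leaving out each library. ISG20 ran from -0.04 (without the control library of 22 August) to 0.37 leaving out each library. Over all genes the calls higher and lower on 22 August were 209 and 31 with no filter, 108 and 10 with DESeq2, 283 and 160 without 5 September, 84 and 4 without the mimic term, and 0 lower without 18 September. Leaving out each library they ran from 57 to 978 higher and 1 to 561 lower, the most without the control library of 22 August.

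Between mimics, 0 of the genes were called in all 16 alternatives, including the fit with no replicate block, where the median was 0.08 and 0 of all genes were called, so dropping the pairing by date changed no call. Over all genes the calls higher and lower with the mimic were 11 and 10 with no filter, 4 and 7 with DESeq2, 4 and 4 without 22 August, and 46 and 29 without 5 September. Leaving out each library they ran from 0 to 53 and 2 to 33, the most without a library of 5 September.

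Between 18 and 5 September, the calls higher and lower over all genes were 101 and 281 with no filter, 11 and 48 with DESeq2, and 1360 and 1755 without 22 August. Leaving out each library gave 0 to 1721 and 0 to 1764, the most without a library of 22 August. The interferon-stimulated genes called were 2 lower with no filter, 1 lower with DESeq2, 1 higher and 3 lower without 22 August, and 0 to 2 higher and 0 to 3 lower leaving out each library. IFIT2 passed in 7 of 13 alternatives (adjusted p 4.33e-05 to 0.999).

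For the interaction, calls over all genes were 7 higher and 28 lower with no filter, and 0 to 55 and 13 to 86 leaving out each library, with 0 to 1 of the genes lower (1 without the control library of 18 September). It could not be estimated without either 22 August library. Causes of these shifts were not tested. With 2 libraries per date, and 1 per mimic and date, the spread rests on few samples, and depth limits the scarce genes only.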
